A study of Mus musculus with 15 samples.

Results

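The genes described here are the immunoglobulin constant, diversity (D) and joining (J) genes of the mouse, as expressed in the kidney. The rule for members uses annotation only, although it was set with earlier results of these data known: it takes every gene of the expression table whose Ensembl identifier has the GENCODE M21 biotype of an immunoglobulin constant, D or J gene on GRCm38. This gave 46 of 54532 genes, of which 13 were constant genes of 314 to 2678 bases, 19 were D segments of 10 to 29 bases and 14 were J segments of 38 to 100 bases. All D segments and 4 J segments lie in the heavy chain locus (Igh, chromosome 12), 5 J segments in the kappa locus (Igk, chromosome 6) and 5 in the lambda locus (Igl, chromosome 16).

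One kidney each of 15 male C57BL/6 mice, 8 weeks old when bought, was sequenced, with 5 mice in each of 3 groups killed after 8 weeks. The C group ate normal chow. The M group, the chronic kidney disease (CKD) model, ate chow with 0.25% adenine for 4 weeks, a purine whose product forms crystals in the tubules, and standard chow for the other weeks. The AA group ate the same and was given asiatic acid (AA), a plant triterpenoid, by daily gavage at 30 mg/kg throughout, while C and M mice received its vehicle, saline with 1% DMSO. All mice were of 1 sex and strain, and each library is a whole tissue, so that fewer cells of a type and less RNA per cell cannot be told apart.

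An antibody is made of heavy and light chains, and each chain joins a variable part, assembled in the DNA of a B cell from V, D (heavy chains only) and J segments, to a constant part. The constant gene of the heavy chain sets the class: Ighm for IgM, Ighd for IgD, the Ighg genes for IgG, Ighe for IgE and Igha for IgA. Plasma cells, the antibody-secreting end stage of B cells, carry very large amounts of constant gene RNA. The constant genes are therefore commonly read as a sign of plasma cells in a tissue, whereas a D or J segment is shorter than the 150-base reads used here, and the rest of any read counted on it lies outside the annotated segment.

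The D segments on which results turn are printed first, from the GENCODE M21 transcripts (GRCm38, chromosome 12, minus strand, 5′ to 3′). In the pair below, Ighd3-1 (chr12:113525313-113525329) and Ighd3-2 (chr12:113448214-113448229), the capitals mark the 13 bases that are the same in both when they are aligned at the 3′ end. The other 6 sequences are the Ighd2 segments, which have the same length as Ighd3-1 and no read in any library, and their capitals mark bases shared with Ighd3-1 in that alignment.
Ighd3-1: ggcACAGCTCgGGCTAC
Ighd3-2: agACAGCTCaGGCTAC
Ighd2-3: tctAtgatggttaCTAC
Ighd2-4: tctACtatgattaCgAC
Ighd2-5: cctACtatagtaaCTAC
Ighd2-6: cctACtatagtaaCTAC
Ighd2-7: tctACtatggttaCgAC
Ighd2-8: tctACtatggtaaCTAC
Between 5 and 6 bases of each Ighd2 segment matched Ighd3-1. Neither Ighd3 sequence occurs, on either strand, in the annotated transcripts of any other gene. Ighd2-5 and Ighd2-6 are identical, as are Ighd5-2, Ighd5-3, Ighd5-4 and the transcript of Ighd5-6, so that reads could not have been assigned to 1 of them by sequence within the segment.

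The IgG constant genes share stretches of sequence, which bears on how reads were assigned to them. The first 60 bases of their constant transcripts are shown, with the bases that differ from Ighg2c in capitals. The transcripts belong to Ighg2c (chr12:113285325-113288932), Ighg2b (chr12:113302965-113307933) and Ighg1 (chr12:113325240-113330523), all on the minus strand.
Ighg2c: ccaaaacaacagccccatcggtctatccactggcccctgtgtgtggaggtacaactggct
Ighg2b: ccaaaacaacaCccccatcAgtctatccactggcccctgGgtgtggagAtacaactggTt
Ighg1: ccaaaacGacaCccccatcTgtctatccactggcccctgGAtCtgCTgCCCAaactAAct
In this stretch Ighg2b differed from Ighg2c at 5 bases and Ighg1 at 14. Of all 31-base words in Ighg2c, 14.98% also occur in another gene, nearly all of them in Ighg2b, and of those in Ighg2b 9.29% do. For Iglc3 and Iglc2, lambda constant genes, these shares were 25.1% and 19.6%. Values of these 4 genes are therefore less certain, to an extent that the shares do not measure, since the assignment of reads was not examined. Ighg3 and Ighg1 shared 3.63% and 1.72% of their words, whereas Igha, Ighm, Ighe and Igkc shared no such word with any gene.

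Values are FPKM, reads on a gene per base of length, scaled by a library total that the authors set. Each was traced back to whole reads from the smallest steps of its library. All 157 member values above 0, of 690, were whole reads within 0.02 of a read. The libraries held about 13650000 to 28880000 reads on genes, and 2080000 to 13570000 outside the mitochondrial genome. Libraries M1 to M3 stood apart, with 10068 to 12222 genes above 0 against 18695 to 25460 in the other 12, and mitochondrial genes took 84.8 to 86.8% of their reads, beside 53.0 to 62.5% in C mice and 69.3 to 87.3% in AA mice. Mouse C4 stood apart in the members themselves, as described next, and several results for members are given with and without these libraries. Fits of the marker lists are given with all libraries only.

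Most members had no read. In all 15 libraries, 29 of the 46 were listed at 0: 16 of 19 D segments, 12 of 14 J segments and the constant gene Iglc4. The J segments above 0 were Ighj4, with 3 reads in C1, and Igkj5, with 2 reads in C3, and the D segment Ighd5-6 had 5 reads in AA4 alone. A count of 0 allows up to 3 counted reads, and for these short segments it does not bound expression. In C4, for example, Igkc had 9706 reads and 134 immunoglobulin V genes were above 0, while no J segment had a read. How reads across joined segments were counted was not tested. Genes above 0 in 5 or more of the 10 libraries of a comparison entered its fit, and 10 constant genes and 2 D segments, Ighd3-1 and Ighd3-2, were tested in every comparison. Iglc3 and Ighe did not pass: Iglc3 was above 0 in C3 (0.1998 FPKM), C4 (3.73), M4 (0.453) and M5 (0.284), and Ighe in M5 only (0.404 FPKM, 20 reads).

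Igkc, the kappa light chain constant gene (532 bases, chr6:70726435-70726966), was the highest member per length in every library, except for the Ighd3 segments in all AA mice and in C1 and C5. In the C group Igkc was 32.4, 56.1, 60.5, 539 and 17.7 FPKM for mice 1 to 5. In the M group it was 48.4, 128, 78.8, 248 and 127 FPKM, and in the AA group 43.5, 59.8, 18.8, 22.5 and 34.2 FPKM. M mice were mostly above AA mice, although M1 (48.4) lay below AA2 (59.8), and C4 was above every other mouse.

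Igha, the heavy chain constant gene of IgA (2668 bases, chr12:113254830-113260236), had its highest value in a model mouse. In the C group it was 3.78, 2.87, 5.67, 36.6 and 2.92 FPKM. In the M group it was 8.88, 31.6, 11.4, 111 and 39.0 FPKM, and in the AA group 9.25, 4.53, 2.57, 1.95 and 8.17 FPKM. Of the 5 AA mice, 4 were below the lowest M mouse, and AA1 (9.25) was just above M1 (8.88).

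For Ighm, the IgM heavy chain constant gene, the C mice had 5.65, 2.32, 1.63, 107 and 2.54 FPKM, the M mice 15.1, 3.45, 9.29, 7.99 and 9.34, and the AA mice 5.30, 5.17, 2.93, 2.34 and 4.84. Apart from M2, every M mouse was above every AA mouse. Ighg2c, the IgG2c constant gene, had 2.30, 3.17, 6.41, 63.4 and 0.338 FPKM in the C mice, 5.59, 11.3, 9.44, 6.04 and 1.45 in the M mice, and 2.77, 0.167, 0, 2.20 and 2.06 in the AA mice. The first 4 M mice were above all AA mice, and M5 (1.45) was not. Ighg2b, the IgG2b constant gene, ran from 1.21 to 3.88 FPKM over the M mice and from 0 to 1.18 over the AA mice, without overlap.

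**Figure D1:**
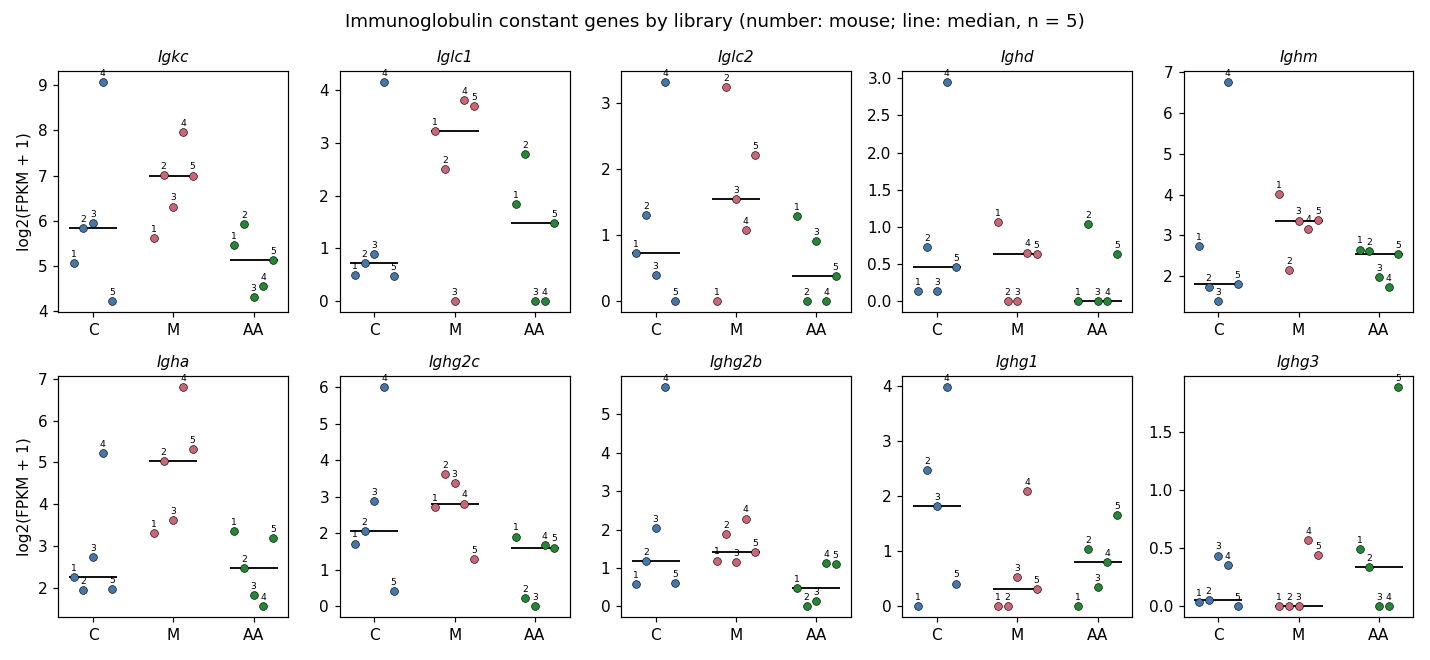
Level of 10 constant genes on the log2(FPKM + 1) scale in each library of the C, M and AA groups (points numbered by mouse, horizontal line the median of 5). C mouse 4 was the highest C mouse in every panel but Ighg3 (0.282 FPKM), and Igkc, Igha and Ighg2c sat higher in most M mice than in most AA mice.

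Mouse C4 held far more constant gene RNA than the other controls. The summed FPKM of the constant genes was 849 in C4 and 25.1 to 81.7 in the other C mice, beside 88.7 to 396 for M mice and 25.5 to 77.9 for AA mice. Against the median of the other 4 C mice, C4 was 12.2-fold higher for Igkc, 10.9-fold for Igha, 44.1-fold for Ighm and 57.4-fold for Ighg2b. Marker lists of several cell types stood apart in it too. The summed FPKM of 11 B cell genes was 26.6 in C4 and 2.57 to 5.52 in the other C mice, with Cd79a, a signalling chain of the B cell receptor, at 9.08 and at most 0.165, although Blnk, a B cell adaptor, had its lowest value among C mice there (1.37). That of 7 macrophage genes was 104 in C4 and 16.7 to 28.8 in the others, and that of 7 kidney genes 245 and 405 to 1147. The part of these in the C group values was not tested. By contrast the Ighd3 segments were not high in C4 (Ighd3-1 at 40.0 and Ighd3-2 at 33.2 FPKM, 0.986-fold and 0.985-fold of that median).

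The mix of heavy chain classes differed widely among mice. As a share of summed heavy chain constant FPKM, Igha held 13.05 to 41.5% in C mice, 27.8 to 83.2% in M mice and 23.1 to 51.1% in AA mice. The highest shares were those of M4 (83.2%), M5 (73.5%) and M2 (64.5%), and no C or AA mouse came above 51.1%. The 4 IgG genes together held 17.1 to 62.6%, 7.05 to 35.0% and 6.49 to 49.0% in C, M and AA mice, and Ighm 8.23 to 45.8%, 6.01 to 47.2% and 22.4 to 49.8%. Kappa was 85.3 to 100% of light chain constant FPKM over all mice, as is usual in the mouse, and light chain exceeded heavy chain FPKM in each library, by 1.68-fold to 5.36-fold. These shares were not tested between groups, whose ranges overlapped for every class.

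**Figure D2:**
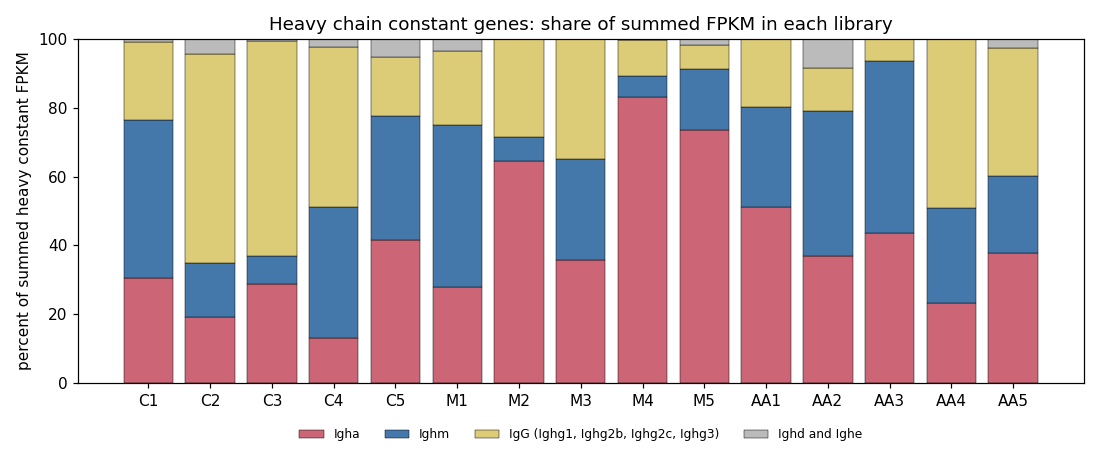
Percent of summed heavy chain constant FPKM held by Igha, Ighm, the 4 IgG genes and Ighd with Ighe, 1 bar for each library. Igha held 83.2% in M4 and 73.5% in M5, against at most 41.5% in any C mouse and 51.1% in any AA mouse.

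The first comparison asked which members differed between the CKD model and control kidneys. None was called (limma, adjusted p of at most 0.05 and an absolute log2 fold change of at least 1), where 1.38% of the 21153 genes tested were. At an unadjusted p under 0.05 there were 2 of 12 members, where 16.5% of genes tested were. Igha was higher in M by 1.99 ± 0.73 (SE) on the log2 scale (adjusted p = 0.205 by limma), and Ighd3-1 was lower by -2.80 ± 1.14 (adjusted p = 0.249). The 10 constant genes tested had a median log2 fold change of 0.24, with 7 above 0, beside -0.12 over all genes, of which 67.9% were below 0. The value for Igha was 2.59 ± 0.62 without C4 (adjusted p = 0.0810), and 1.16 ± 0.73 with M1 to M3 only and 3.23 ± 0.85 with M4 and M5 only.

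The Ighd3 values of this comparison rested on M1 to M3, which had no read on either segment. When M4 and M5 alone stood for the model, Ighd3-1 had a log2 fold change of 0.25 ± 0.89 and Ighd3-2 of 1.07 ± 1.45, whereas with only M1 to M3 these were -4.84 ± 0.71 (adjusted p = 0.00261) and -4.43 ± 1.19 (adjusted p = 0.0296). Both were called only in the latter fit, in which the M group is at 0 throughout, so that the size of the change is set by the pseudocount. Igkc had a log2 fold change of 0.76 ± 0.76, Iglc1 of 1.29 ± 0.81 and Ighg1 of -1.15 ± 0.68, and none of these passed the test. Without C4 they were 1.52 ± 0.51, 1.99 ± 0.66 and -0.59 ± 0.57. Ighm went from 0.33 ± 0.85 to 1.29 ± 0.41 without C4. None of these was called in that fit.

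The second comparison asked how kidneys of treated mice differed from those of the untreated model, with the same M libraries as before. Of the 12 members tested, 5 were called, where 12.8% of the 19798 genes tested were. The 5 split by kind: 3 constant genes fell (1.07% of genes tested were called lower) and both D segments rose (11.7% were called higher). Higher genes made up 91.6% of all calls, a share that was 43.1% when libraries were centred on their medians and 27.0% with only M4 and M5 in the M group.

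Igha fell by 2.33 ± 0.60 (SE, n = 5 per group) on the log2 scale (limma adjusted p = 0.0177), Igkc by 1.71 ± 0.46 (adjusted p = 0.0205) and Ighg2c by 1.68 ± 0.50 (adjusted p = 0.0324). These are the constant genes of IgA, of the kappa light chain and of IgG2c. Ighg2b was close behind at -1.02 ± 0.34 (adjusted p = 0.0520), with all 5 AA mice below all 5 M mice in FPKM, an order without overlap that 1.31% of tested genes showed. The gap was narrow, from 1.18 FPKM in AA4 to 1.21 in M3. In reads, not scaled to depth, AA4 had 65 and AA5 49, beside 40 in M1 and 44 in M3. Ighm (-0.90 ± 0.37), Iglc1 (-1.42 ± 0.71) and Iglc2 (-1.10 ± 0.51) had values below 0 but did not pass, nor did Ighd (-0.14 ± 0.26), Ighg1 (0.18 ± 0.41) and Ighg3 (0.34 ± 0.31). The 10 constant genes had a median log2 fold change of -1.06 with 8 below 0, beside 0.17 and 37.7% of genes below 0 over all genes tested.

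How firm these calls were depended on the gene. With any 1 library left out, Igha and Igkc were still called in all 10 fits, whereas Ighg2c was called in 4 of them, without M5, AA1, AA4 or AA5. With only M4 and M5 in the M group Igha was -3.58 ± 0.57 (adjusted p = 0.00738) and Igkc -2.40 ± 0.48 (adjusted p = 0.0155), but Ighg2c was -0.97 ± 0.61 (adjusted p = 0.337). With only M1 to M3, Ighg2c was -2.15 ± 0.49 (adjusted p = 0.00984), Igha -1.50 ± 0.51 (adjusted p = 0.0530) and Igkc -1.24 ± 0.42 (adjusted p = 0.0549). After scaling every library to the same sum (TPM), mitochondrial genes included, none of the 3 passed, at log2 fold changes of -2.48 for Igha, -1.80 for Igkc and -1.72 for Ighg2c. All 3 stayed below 0 in each fit run. Apart from leaving out libraries, Igha and Igkc were called in 13 of 16 alternatives each and Ighg2c in 8 of 16, not with a pseudocount of 0.1 (adjusted p = 0.0545), for example. Ighg2b was called in 6 of the 16, such as with scaling outside the mitochondrial genome (-1.07, adjusted p = 0.0468).

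**Figure D3:**
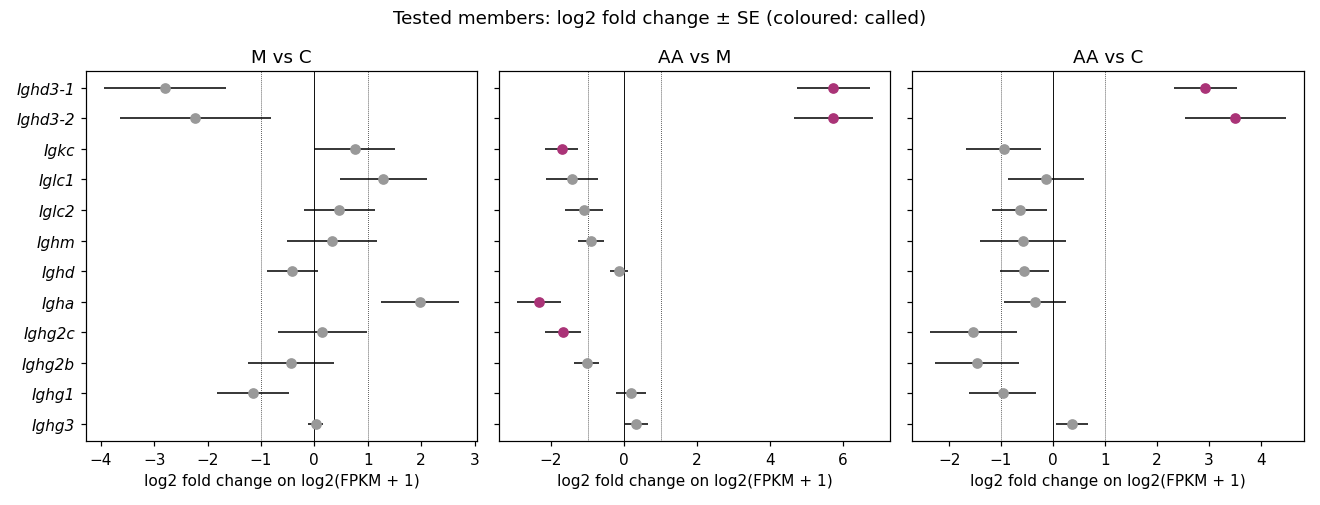
Log2 fold change ± SE on log2(FPKM + 1) of the 12 members tested, in the 3 comparisons, each in its own panel, with called members coloured and dotted lines at 1 and -1. In AA vs. M the constant genes Igha, Igkc and Ighg2c were called below 0 and Ighd3-1 and Ighd3-2 above 5 on this scale.

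The D segments Ighd3-1 and Ighd3-2 moved the other way from the constant genes. In reads, Ighd3-1 had 37, 4, 15, 23 and 39 in the C mice, 0, 0, 0, 11 and 26 in the M mice, and 53, 68, 38, 76 and 41 in the AA mice. Ighd3-2 had 57, 0, 36, 18 and 18 reads in the C mice, 0, 0, 0, 20 and 23 in the M mice, and 71, 61, 34, 88 and 43 in the AA mice. Each value thus rested on under 100 reads, which a length of 16 or 17 bases turns into FPKM of 142 to 444 in the AA group. In M1 to M3 a count of 0 allows up to 12.99 to 16.9 FPKM of Ighd3-1, and these libraries held 2080000 to 2770000 reads outside the mitochondrial genome, beside 2220000 in AA2, which had 68 reads on Ighd3-1. The part of depth in these counts was not tested.

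**Figure D4:**
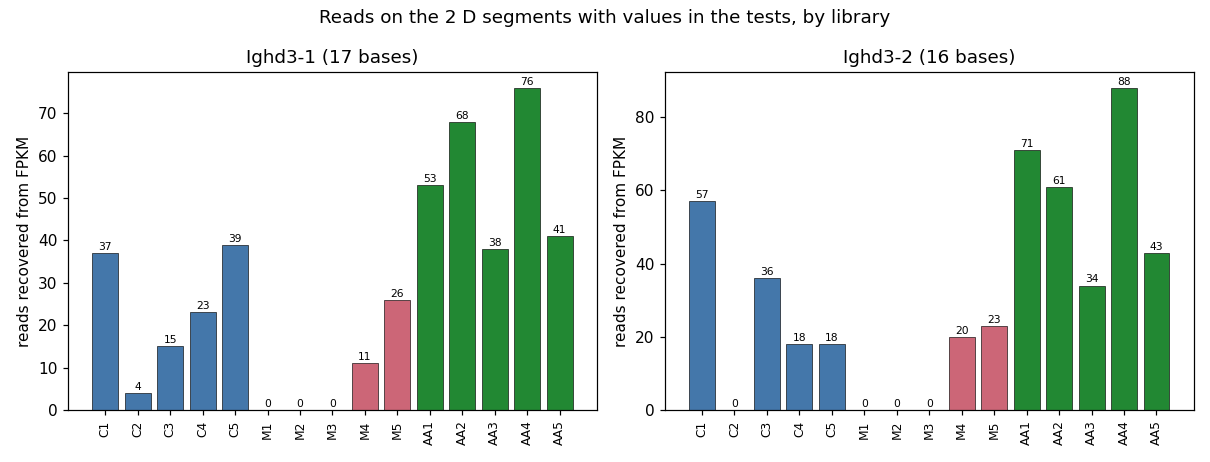
Reads on Ighd3-1 (left) and Ighd3-2 (right) in each library, recovered from FPKM, 1 bar for each mouse with its count above. AA mice had 34 to 88 reads, M mice 1 to 3 had 0, and libraries differ in total reads, so that bar heights are not scaled to depth.

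On the FPKM scale Ighd3-1 was 67.8, 5.85, 13.3, 40.0 and 68.6 in the C mice, 0, 0, 0, 22.1 and 49.0 in the M mice, and 229, 444, 149, 217 and 150 in the AA mice. Ighd3-2 was 111, 0, 33.9, 33.2 and 33.6, then 0, 0, 0, 42.6 and 46.1, then 326, 423, 142, 267 and 167 FPKM. For both segments every AA mouse was above every M and every C mouse, while C and M mice overlapped. Genes with all AA above all M mice were 11.9% of those tested, and genes with all AA above all C mice 11.5%.

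In AA vs. M, Ighd3-1 rose by 5.74 ± 1.009 (adjusted p = 0.00391, limma) and Ighd3-2 by 5.74 ± 1.07 (adjusted p = 0.00467) on the log2(FPKM + 1) scale. Without M1 to M3 these were 2.69 ± 0.48 (adjusted p = 0.0107) and 2.44 ± 0.45 (adjusted p = 0.0115), smaller and still called. Over the 15 alternatives that held both segments and left out no single library, the lowest values were the 2.69 and 2.44 just given. The highest were 9.74 for Ighd3-1 and 9.73 for Ighd3-2, with a pseudocount of 0.01 (adjusted p = 0.0407 for both). With M1 to M3 at 0, the size thus depends on the pseudocount as well as on those libraries. Both segments were called in all 15 alternatives and whichever 1 library was left out.

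The third comparison set treated against control mice. Both Ighd3 segments were called and no constant gene was, where 19.8% of the 21898 genes tested were called and 10.2% were called higher in AA. Ighd3-1 rose by 2.94 ± 0.61 (adjusted p = 0.00378) and Ighd3-2 by 3.51 ± 0.97 (adjusted p = 0.0154), which was not called as TPM (adjusted p = 0.0706) or with a pseudocount of 0.01 (adjusted p = 0.0949). As TPM, 2 constant genes were called lower, Igkc (-2.05, adjusted p = 0.0274) and Ighg2c (-2.40, adjusted p = 0.0495). Of the 10 constant genes 9 had values below 0, where 43.7% of genes did, with a median of -0.61 beside 0.09 over all genes, and their adjusted p ran from 0.165 to 0.900. C4 bore on these: without it Igha went from -0.35 to 0.25, Ighm from -0.58 to 0.39 and Iglc1 from -0.13 to 0.57, none called.

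Values of other short genes stand beside those of the D segments. Outside the immunoglobulin and T cell receptor families, 5808 genes of the table had at most 150 bases, of which 270 were tested in AA vs. M. A gene entered the fit when above 0 in 5 of 10 libraries, and M1 to M3 had 20 to 24 of the short genes above 0. Most short genes therefore passed through the AA mice with M4 and M5, which favours values above 0, as it does for the Ighd3 segments. Under that limit 166 (61.5%) were called higher in AA and 0 lower, with a median log2 fold change of 2.45 beside 0.16 for the longer genes. In AA vs. C 157 of 322 (48.8%) were called higher and 13 lower, with a median of 1.69. M4 and M5 had 403 and 536 of the short genes above 0, C mice 200 to 521 and AA mice 300 to 428, so the 3 libraries without a read on either Ighd3 segment were those with few short genes of any kind.

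The short genes called with the largest change in AA vs. M were annotated as small RNA genes. They were Gm25810 (an snRNA gene, 4.82 ± 0.86), Gm22773 (an miRNA gene, 4.71 ± 0.75) and Gm24519 (a snoRNA gene, 4.57 ± 0.87). Their lengths of 108, 78 and 132 bases are also shorter than a 150-base read, so these values need not be those of the small RNAs themselves. M1 to M3 had no read on any of the 70 T cell receptor J segments of the table, so that the 4 tested passed the filter through the other libraries. Those named here are 59 to 62 bases long and were called higher in AA vs. M: Traj27 (4.77 ± 0.62), Traj49 (3.67 ± 0.78) and Traj16 (2.71 ± 0.76). Among immunoglobulin V genes, which are longer, 2 of 6 tested were called higher, where 11.7% of all genes were. They were Iglv3 (2.28 ± 0.53) and Igkv20-101-2 (1.90 ± 0.61). Both were at 0 in M1 to M3, so they too passed the filter through the other libraries. The summed FPKM of the V genes was 18.0 to 58.3 in M mice and 11.1 to 48.2 in AA mice. The part of gene length in the Ighd3 result was not tested.

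**Figure D5:**
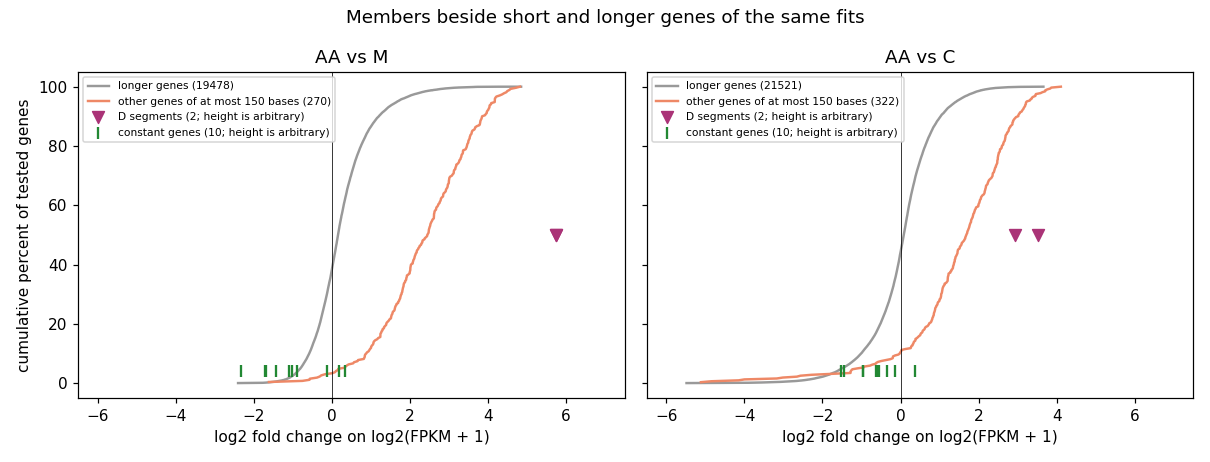
Cumulative percent of tested genes against log2 fold change for AA vs. M (left) and AA vs. C (right), for genes of at most 150 bases and longer genes outside both receptor families, with constant genes as ticks and the D segments as triangles at an arbitrary height. In AA vs. M the median was 2.45 for the short genes, few of which had reads in M1 to M3, and 0.16 for the longer genes, the 2 Ighd3 triangles coincide at 5.74, and 8 of 10 constant genes were below 0.

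The neighbours of the Ighd3 segments in the heavy chain locus had few reads or none. Ighd2-8, 2622 bases from Ighd3-2, was at 0 in every library, and Ighd5-6, 1359 bases away, had the 5 reads named above. Beside Ighd3-1, the D pseudogene Ighd5-1 at 1471 bases was above 0 in 1 library and Gm16968 at 2703 bases in none. Neither Ighd3 segment overlaps another annotated gene. Among the constant genes Igkc lies within the span of the lincRNA Gm30211 on the same strand with no exon base in common, Iglc2 contains the J segment Iglj2 (38 bases) on its own strand, and Iglc3 shares 93 exon bases with the antisense gene 2010309G21Rik. For Iglc3 the strand of the reads could not be told apart, since the strand setting of the counting was not given in the sources used here.

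Other genes of plasma cells, B cells and antibody handling were set beside the members, from fixed lists. Of the 11 plasma cell genes none was called in M vs. C (10 tested) or AA vs. M (8 tested). In AA vs. C 1 of 10 was called, lower, where 9.61% of all genes were. Jchain, which links IgA and IgM into polymers, was 2.89, 0.633, 1.74, 30.2 and 0.190 FPKM in the C mice, 5.14, 50.2, 7.20, 11.04 and 3.02 in the M mice, and 11.8, 5.33, 5.53, 1.72 and 10.9 in the AA mice. Its log2 fold change in AA vs. M was -0.57 ± 0.62 (adjusted p = 0.565), and the groups overlapped.

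The other defining plasma cell markers were at most 6.11 FPKM. Mzb1, an endoplasmic reticulum chaperone of antibody secretion, was 1.31 to 6.11 FPKM in the C mice, 0 in M1 to M3 and in all AA mice, 1.43 in M4 and 1.42 in M5, and it fell by 1.87 ± 0.29 in AA vs. C (adjusted p = 0.000967), a size that depends on the pseudocount because the AA mice were at 0. Tnfrsf17, the survival receptor BCMA, was above 0 in 4 libraries, with a highest value of 1.98 in AA5, and Derl3, a degradation factor of the endoplasmic reticulum, was at most 0.579 FPKM. Pou2af1, a B cell coactivator, was highest in C4 (1.44 FPKM). Side by side, Igkc, Igha and Ighg2c were called lower in AA vs. M, while Mzb1, Tnfrsf17 and Derl3 did not pass the filter there and Jchain and Pou2af1 (0.14 ± 0.16) were not called.

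Of 11 B cell genes, none was called in M vs. C (7 tested) or AA vs. M (5 tested). In AA vs. C (8 tested) Cd79b, a signalling chain of the B cell receptor, fell by 1.18 ± 0.34 (adjusted p = 0.0183), a size that again depends on the pseudocount, since all AA mice were at 0. It was the 1 called there, where 9.61% of all genes were called lower. Rag1 and Rag2, which cut the DNA in V(D)J recombination, did not exceed 0.0724 FPKM in any library.

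Among 10 receptors that bind or carry antibodies, 3 of 8 tested rose in M vs. C, all of them activating Fc receptor subunits of myeloid cells. Over all genes tested there, 0.269% were called higher. Fcgr1 rose by 1.38 ± 0.24 (adjusted p = 0.0225), Fcgr3 by 2.23 ± 0.42 (adjusted p = 0.0275) and Fcer1g, their shared signalling chain, by 2.27 ± 0.43 (adjusted p = 0.0275). In AA vs. M Fcer1g fell by 1.58 ± 0.43 (adjusted p = 0.0232), where 1.07% of all genes were called lower. In AA vs. C Fcgr3 was the 1 called, higher by 1.68 ± 0.38, where 10.2% of all genes were. Fcgrt, which recycles IgG, and Pigr, which carries IgA and IgM across epithelia, were not called in any comparison.

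Markers of other cell types moved in the same libraries. Of 7 macrophage genes, 3 were called higher in M vs. C (Lyz2, C1qb and C1qc), 1 lower in AA vs. M (C1qb, by 1.36 ± 0.30), and in AA vs. C 4 higher (those 3 and C1qa) and 1 lower (Csf1r). The summed FPKM of the 7 was 318 to 406 in M1 to M3 and 140 to 145 in M4 and M5, beside 100 to 148 in AA mice. Of 10 T cell genes, 9 were tested in AA vs. M with a median of 0.089, and Cd3e (1.23 ± 0.36) and Cd3g (2.51 ± 0.50) were called higher, where 11.7% of all genes were, while Trbc2 (-1.35 ± 0.57) was not called. Cd3g was at 0 in M1 to M3, 2.72 FPKM in M4 and 4.35 in M5. Cd3e was at most 0.108 in M1 to M3, so both sizes depend on these libraries and the pseudocount. The summed FPKM of the T cell genes was 5.39 to 7.79 in M1 to M3 and 25.5 to 51.5 in M4 and M5, beside 19.7 to 41.4 in AA mice. In AA vs. C Cd3e, Cd3g and Trbc1 were called higher. Of 7 kidney genes, 4 were called lower in M vs. C (Slc34a1, Slc12a3, Aqp2 and Lrp2), none in AA vs. M, and 5 lower in AA vs. C (those 4 and Slc12a1). Over all genes tested, 0.269% were called higher and 1.11% lower in M vs. C. In AA vs. M 1.07% were called lower, and in AA vs. C 10.2% higher and 9.61% lower. The part of cell makeup in the constant gene values was not tested.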

How the data were processed

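Kidney RNA of 15 mice, 5 per group, was selected by poly-A and sequenced in paired reads of 150 bases. The authors, per the labels, trimmed with fastp, aligned to mm10 with HISAT2 2.0.5, counted with featureCounts 1.5.0-p3 and deposited FPKM, the only unit used. The annotation and strand setting were not given in the sources used here. Ensembl identifiers were looked up in GENCODE M21 (GRCm38), where 123 of 54532 were absent, and symbols, coordinates and joined exon lengths were taken from it. FPKM times length is a whole multiple of a step in each library, and 97.6 to 98.9% of low values tested were whole within 0.02. The step was taken as 1 read. Steps had an excess of even multiples, which leaves a factor of 2 open between reads and fragments. If both reads of a pair were counted, a value rests on fewer fragments than reads, which was not tested. The library total behind the authors' FPKM, from this step, was about 9020000 to 66430000, 3.19 to 5.03 times the reads outside the mitochondrial genome but 0.518 to 2.30 times all reads on genes. No interval was computed from the reads. Limits from a count of 0 cover counting error only and treat reads as independent, so that counting in pairs would widen them.

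Each comparison was fitted with limma 3.58.1 in R 4.3.3 (lmFit, eBayes with trend) on log2(FPKM + 1), with the 10 libraries compared, for genes above 0 in at least 5 of them. A call needed a p, adjusted by Benjamini-Hochberg across every gene of the fit, of 0.05 or less and an absolute log2 fold change of at least 1. A fold change on this scale understates that of low genes. Comparisons share the M, C or AA libraries and are not independent. P-values set the difference of group means against the spread between libraries, each from a different mouse. Alternatives were other pseudocounts (0.1 and 0.01), filters, scalings, weights, a replicate block, all 15 libraries in 1 fit, voom on recovered reads, no short genes, each library left out, and M mice split as 1 to 3 and 4 to 5.

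Every constant gene is named, D and J segments where they passed the filter, defining plasma cell markers, any called list gene, and at most 3 called genes per other class by size of change. Ighd5-6, Ighj4, Igkj5, Cd79a, Blnk, Trbc2, Rag1, Rag2, Fcgrt and Pigr were named after their values were seen. The members and lists were chosen with earlier results of these data known. Python 3.11.15 with numpy 2.4.6, pandas 2.3.3 and matplotlib 3.10.9 was used. The values of 1 list gene are not reported here. The authors' DESeq2 comparison was not analysed here.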

Additional observations from a re-analysis of the deposited data

Results flagged for a closer look

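A library stood far from the others of its group (Dixon's ratio above 0.71 on log2(FPKM + 1), n = 5) in 8 of 36 groups of values. Chance flags about 1 in 20 for independent, normally spread values. The groups here share libraries and some hold repeated values of 0, so the 8 cannot be judged by that rate. In 5 of the 8 the library was C4: Ighm at 107 FPKM, Ighg2b at 51.4, Igha at 36.6, Iglc1 at 16.8 and Ighd at 6.75. The others were Ighd3-2 in C2, listed at 0, Ighg1 in M4 at 3.29 FPKM and Ighg3 in AA5 at 2.69 FPKM. Their cause was not tested.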

How the results depend on the processing

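The count of members called in AA vs. M, 5, was 3 with a filter of any library above 0, 2 as TPM, 9 when centred on library medians, 3 with all 15 libraries in 1 fit, 8 with library quality weights, 3 without genes of at most 150 bases (which holds no D segment) and 3 with M1 to M3 only. Its constant genes called lower, 3, became 1, 0, 7, 1, 6 and 1 under the same settings (3 without short genes) and 5 under quantile normalization. Leaving out 1 library gave 4 to 6 members, 2 to 4 constant genes and 2 D segments. In AA vs. C the 2 members called were 1 with a pseudocount of 0.01 and 0 without short genes, and the D segments 1 with that pseudocount and 1 as TPM. In M vs. C the 0 called became 2 with M1 to M3 only. Leaving out 1 library kept 0 and 2 there. The causes were not tested, beyond that a fit without short genes cannot hold D segments.

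Replicate numbers did not pair the libraries: correlations of same-numbered libraries ran from -0.131 to 0.217. With the replicate block 4 members were called in AA vs. M, of which 2 were constant genes, and 2 in AA vs. C but 0 in M vs. C. Ighg2c lost its call (adjusted p = 0.0607).

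Values not called changed sign in these fits. In M vs. C these were Ighd3-1 (0.25) and Ighd3-2 (1.07) with M4 and M5 only, Ighg2b with voom (0.11), Ighg2c as TPM (-0.68) and with M4 and M5 only (-0.57), Ighg3 with a pseudocount of 0.1 (-0.033) or 0.01 (-0.66), as TPM (-0.071) and with M1 to M3 only (-0.18), and as TPM Ighm (-0.49) and Igkc (-0.24). In AA vs. M these were Ighg1 when centred on medians (-0.33), under quantile normalization (-0.13), with quality weights (-0.53) and with M4 and M5 only (-0.43), and Ighg3 when centred (-0.17). Leaving out 1 library in M vs. C gave -0.60 to 0.10 for Ighd, -0.80 to 0.49 for Ighg2b, -0.40 to 0.99 for Ighg2c, -0.067 to 0.090 for Ighg3 and -0.048 to 1.29 for Ighm. In AA vs. M it gave -0.31 to 0.011 for Ighd and -0.038 to 0.56 for Ighg1, and in AA vs. C -0.57 to 0.25 for Igha, -0.95 to 0.39 for Ighm and -0.52 to 0.57 for Iglc1.

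Centring on library medians moved the median log2 fold change of all genes in AA vs. M from 0.17 to -0.35, voom to 0.67, and TPM in M vs. C from -0.12 to -0.58. Over all genes, M vs. C gave 291 calls, but 110 with a pseudocount of 0.01, 33 with the filter of any library, 448 with a mean FPKM of at least 1, 1609 as TPM, 786 with all 15 libraries, 188 with weights, 152 with the block, 496 with voom, 14 with M4 and M5 only, 3094 with M1 to M3 only and 1 to 766 without 1 library (1 without C5). AA vs. M gave 2533, but 422 as TPM and 3972 with voom, and AA vs. C 4346, but 7474 with a pseudocount of 0.1, 6785 as TPM and 7868 with voom. The limit of 50 bases for short genes left none to test. At 100 bases 57.4% were called higher in AA vs. M. A count of 0 on a D or J segment bounds the reads counted on it, not its expression.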
